A study of Mus musculus with 6 samples.

Results

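Transforming growth factor beta (TGF-beta) signalling was followed through 10 genes, comprising the ligands Tgfb1, Tgfb2 and Tgfb3, the receptors Tgfbr1, Tgfbr2 and Tgfbr3, the latency proteins Ltbp1, Ltbp2 and Ltbp3, and the matrix protein Tgfbi. A gene was represented by probe sets whose platform annotation names it alone. Each of the 10 genes had exactly 1 such probe set, out of 22180 genes measured in this way. The data were log2 expression values from 6 arrays of mouse mammary material. The tumor group (Brca1Tumor) held tumors 23, 24 and 25, which formed in females of the genotype Trp53L/L;Brca1L/L. The mammary ducts of these mice had been injected several months earlier with Ad-K8-Cre, an adenovirus that expresses Cre recombinase in cells using the keratin 8 promoter. The wild-type group (K8wt) held replicates 1, 2 and 4, YFP+ luminal cells sorted from Rosa26-Stop-YFP females 10 to 14 days after the same virus. All animals of both groups therefore received the virus. No sorting is described for the tumors, so their values are taken as RNA of every cell in the tumor piece. The animals' ages are not stated in the sources used here. The labels give the tumors separate numbers without saying that each came from its own mouse, so p-values may measure in part the spread between tumors of 1 animal.

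TGF-beta ligands are made as precursors whose propeptide stays wrapped around the mature ligand and keeps it inactive. Latent TGF-beta binding proteins tether this complex to the extracellular matrix, from which integrins and proteases can release it. The free ligand binds the type II receptor Tgfbr2, which recruits and phosphorylates the type I receptor Tgfbr1, and Tgfbr1 phosphorylates Smad2 and Smad3, which act on transcription with Smad4. In the mouse mammary gland the pathway is known for restraining ductal growth and for its part in involution.

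Tgfb3 and Ltbp2 rose in the tumors and none of the 10 genes fell. The difference of Tgfb3 was 2.03 ± 0.25 log2 units (SE, n = 3 and 3), 4.09-fold, and that of Ltbp2 was 1.18 ± 0.23, 2.27-fold. Tgfbi (2.81 ± 0.64) and Tgfb2 (1.30 ± 0.34) lay higher on every tumor array than on any wild-type array without passing the test. Of these 10 genes 2 passed upward and 0 downward, against 2.52% and 1.39% of all genes, and 4 had an unadjusted p under 0.05 in limma, against 26.4%. The groups were wholly apart for 5 of the 10 and for 36.4% of all genes. The tumor values lay above the wild-type values for all of those 5, namely Tgfb2, Tgfb3, Tgfbr3, Ltbp2 and Tgfbi, against 14.0% of all genes. They lay below for 0 of the 10, against 22.4%. All 10 had a mean of at least 5, and among the 7726 genes that bright the shares passing upward and wholly above were 4.72% and 24.5%. The median difference was 1.07 over the 10 genes, -0.12 over all genes and 0.32 over the bright ones. Here and below a gene passes where limma, a linear model that pools the spread across genes, gave an adjusted p under 0.05 after Benjamini-Hochberg adjustment over 22180 genes. Levels are log2 RMA values of 1 probe set, which can be compared between arrays but not between genes.

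**Figure D1:**
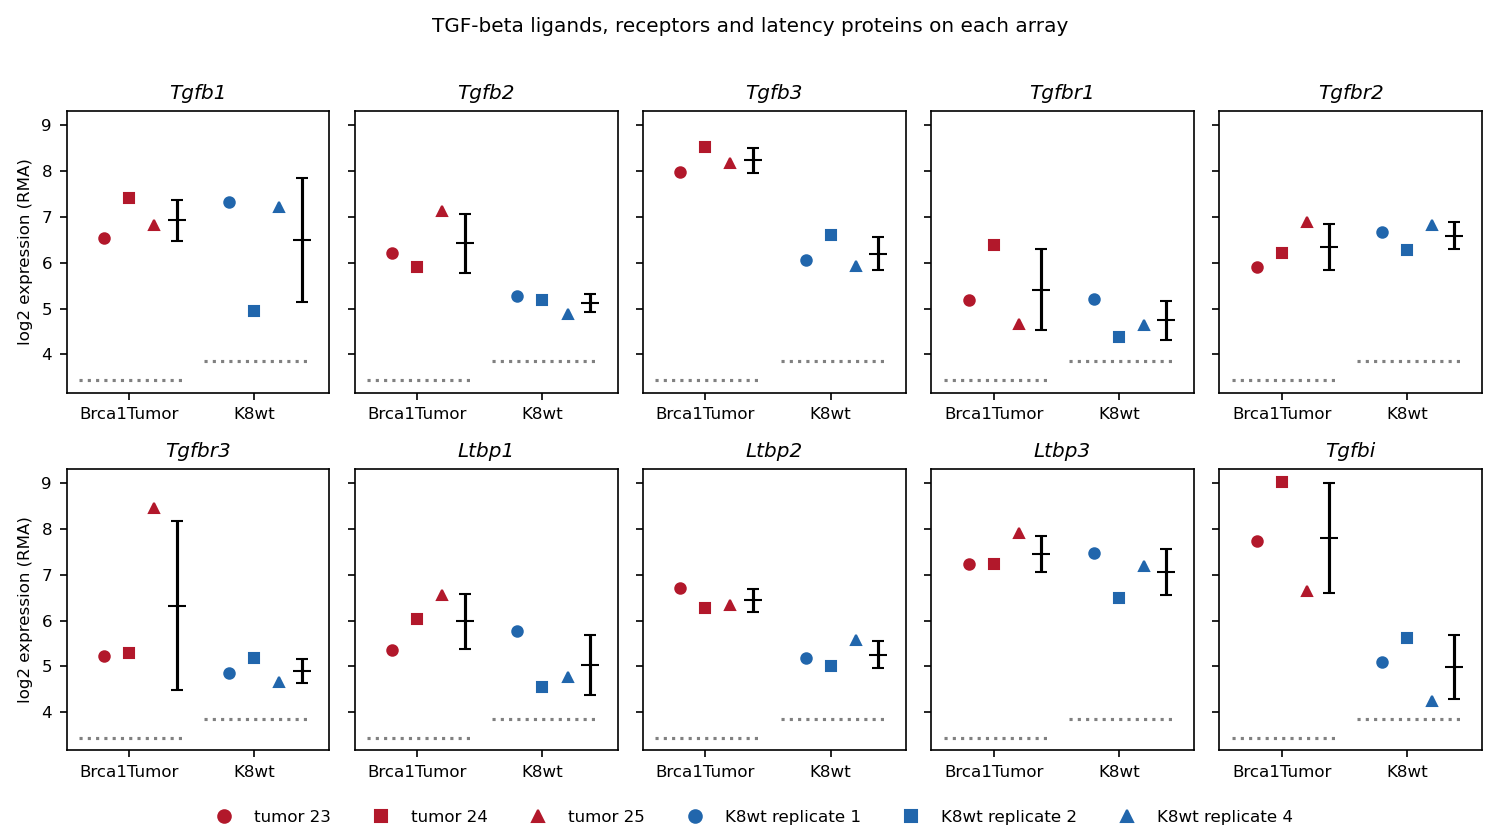
Log2 expression (RMA) of each of the 10 genes on each array, with tumors in red on the left and wild-type cells in blue on the right of each panel. Black bars give the group mean and SD (n = 3), and dotted lines the highest background mark of the group. Tgfb3 lay between 7.99 and 8.53 on the tumor arrays and between 5.94 and 6.61 on the wild-type arrays.

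All 10 genes were above a background mark on all 6 arrays. That mark is the 95th percentile of 1105 olfactory receptor genes, which lay between 3.24 and 3.45 on tumor arrays and between 3.70 and 3.86 on wild-type arrays. Brca1, which the labels call deleted in the tumors, measured 4.10, 3.74 and 3.79 in tumors 23, 24 and 25. It measured 2.81, 2.99 and 2.99 in wild-type replicates 1, 2 and 4, all 3 under the mark. Its difference was 0.94 ± 0.18 (SE, adjusted p of 0.044 in limma), so that it passed upward. The deleted exons and the probe positions are not given, so these values do not check the labels, and Trp53 was not analysed here. The epithelial keratin Krt8 ran from 7.76 to 9.41 in tumors and from 10.31 to 11.12 in wild-type cells. On the wild-type arrays the stromal proteoglycan gene Dcn (10.10 to 11.11) and the endothelial cadherin gene Cdh5 (5.54 to 7.34) were also above background. With the tumors taken as bulk tissue, fewer cells of a type and less RNA per cell cannot be told apart in any of these values.

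Promoters of the genes with the lowest p-values are shown because they are the members that differed most clearly between the groups. The RefSeq promoter table (GRCm38.p6, 250 bases before to 50 after a transcript start) held 8 of the 10 genes, and Tgfb3 and Tgfbr3 were not in it. Capitals mark CAGAC, the short box that Smad3 and Smad4 bind, read on either strand (GTCTG on the other).
Ltbp2, chr12:84876442-84876741, minus strand: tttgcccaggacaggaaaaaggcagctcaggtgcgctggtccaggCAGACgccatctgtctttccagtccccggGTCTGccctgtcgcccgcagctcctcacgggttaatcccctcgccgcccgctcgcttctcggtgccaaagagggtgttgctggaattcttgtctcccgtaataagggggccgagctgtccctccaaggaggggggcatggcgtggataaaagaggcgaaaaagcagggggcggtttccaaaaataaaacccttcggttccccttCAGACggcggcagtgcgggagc
Tgfbi, chr13:56609336-56609635, plus strand: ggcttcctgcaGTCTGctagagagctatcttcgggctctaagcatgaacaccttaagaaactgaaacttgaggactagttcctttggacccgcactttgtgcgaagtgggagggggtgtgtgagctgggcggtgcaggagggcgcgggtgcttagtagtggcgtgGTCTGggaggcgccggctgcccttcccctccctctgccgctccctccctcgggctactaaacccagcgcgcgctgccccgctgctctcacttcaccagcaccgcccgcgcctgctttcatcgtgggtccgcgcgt
Tgfb2, chr1:186705940-186706239, minus strand: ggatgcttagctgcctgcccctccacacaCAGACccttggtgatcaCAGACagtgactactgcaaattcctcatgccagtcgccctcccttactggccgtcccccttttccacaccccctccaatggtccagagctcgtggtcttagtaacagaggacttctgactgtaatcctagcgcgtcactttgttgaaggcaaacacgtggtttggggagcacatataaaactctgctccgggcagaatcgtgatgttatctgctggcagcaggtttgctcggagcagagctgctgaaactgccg
The Ltbp2 promoter held 3 matches, and those of Tgfbi and Tgfb2 held 2 each. Over the 10 promoter windows of the 8 genes, 8 held at least 1 match, against 49.6% of all 32851 windows of that length in the table. The windows without a match belonged to Tgfb1 and to the first start of Tgfbr1. The AP-1 letters TGANTCA occurred in the Ltbp3 window alone, where they overlapped 1 CAGAC match (7.81% of all windows hold them), and the CRE letters TGACGTCA in the window of the first Ltbp1 start alone (1.79%). A match describes letters and shows no binding.

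Of the ligands, Tgfb3 rose and the other 2 did not pass. Tgfb3 encodes the ligand known in mouse for its induction at the onset of mammary involution. It measured 7.99, 8.53 and 8.18 in tumors 23, 24 and 25, against 6.06, 6.61 and 5.94 in wild-type replicates 1, 2 and 4. The lowest tumor lay above the highest wild-type array, and the spread was small in both groups (SD 0.27 in tumors and 0.36 in wild-type cells). The adjusted p in limma was 0.018, with a 95% confidence interval of 1.43 to 2.63 for the difference. Of all genes, 98.4% had a lower difference. The call held under 9 of 9 other processing settings and in 3 of 6 sets that left out an array. In 2 of those 9, which treat several probe sets differently, the values of Tgfb3 were the same, since it has 1 probe set. It was lost without wild-type replicate 1 (1.96, adjusted p of 0.066 in limma), without replicate 4 (1.90, 0.073) and without tumor 23 (2.15, 0.051).

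Tgfb2, whose product binds its receptors efficiently only with the help of betaglycan, measured 6.22, 5.91 and 7.14 in the tumors, against 5.28, 5.19 and 4.89 in wild-type cells. Every tumor was above every wild-type array, with tumor 25 highest. The difference of 1.30 ± 0.34 (SE) had an adjusted p of 0.084 in limma and a 95% confidence interval of 0.50 to 2.11. In no planned setting did it pass, with adjusted p from 0.052 to 0.19 in limma, and the difference was 0.68 with housekeeping centring.

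Tgfb1 encodes the most studied ligand, made by many cells including immune cells and platelets. Its values were 6.55, 7.40 and 6.82 in the tumors, against 7.32, 4.94 and 7.22 in wild-type cells. The groups overlapped, and wild-type replicate 2 stood alone at the low end. The SD among wild-type arrays, 1.35, was larger than that of 99.2% of genes. The difference was 0.43 ± 0.65 (SE), its 95% confidence interval ran from -1.14 to 1.99 and the adjusted p was 0.67 in limma. It was -0.35 without wild-type replicate 2. The data therefore gave no direction for Tgfb1. The platelet chemokine gene Pf4 measured 6.38, 5.24 and 4.55 in the tumors and 5.17, 3.64 and 3.61 in wild-type cells. The mean of 4 platelet markers ran from 4.33 to 4.69 in tumors and from 4.08 to 4.50 in wild-type cells, and their part in the Tgfb1 values was not tested.

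**Figure D2:**
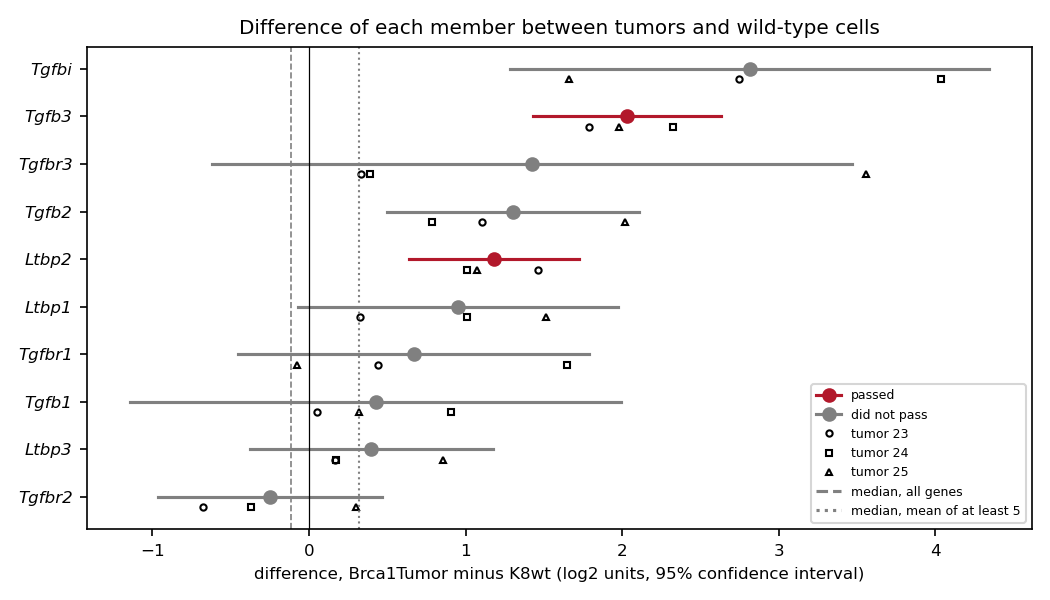
Difference between tumors and wild-type cells for each gene in log2 units (large points), with limma's 95% confidence interval (lines), in red where the gene passed. Small open symbols give each tumor minus the wild-type mean, the dashed line the median of all genes (-0.12) and the dotted line the median of genes with a mean of at least 5 (0.32). The 3 tumors lay close together for Tgfb3 and Ltbp2 and far apart for Tgfbr3 and Tgfbi.

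None of the 3 receptors passed. Tgfbr2, the ligand-binding type II receptor, measured 5.92, 6.22 and 6.89 in the tumors, against 6.67, 6.28 and 6.83 in wild-type cells. The groups overlapped, and Tgfbr2 was the only one of the 10 genes with a lower mean in tumors. Its difference was -0.25 ± 0.30 (SE), the 95% confidence interval ran from -0.97 to 0.47 and the adjusted p was 0.59 in limma.

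Tgfbr1, the signalling type I receptor, measured 5.18, 6.39 and 4.67 in the tumors, against 5.22, 4.38 and 4.64 in wild-type cells. Tumor 24 stood highest, and the other 2 tumors lay within the wild-type range. The difference of 0.67 ± 0.47 (SE, adjusted p of 0.37 in limma) was 0.18 without tumor 24.

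Tgfbr3 encodes betaglycan, the co-receptor that presents ligand, Tgfb2 above all, to the signalling receptors. It measured 5.23, 5.29 and 8.46 in the tumors, against 4.86, 5.18 and 4.67 in wild-type cells. Tumor 25 lay 3.56 above the wild-type mean, and tumors 23 and 24 lay 0.33 and 0.39 above it. The SD among tumors, 1.85, was larger than that of 99.4% of genes. The difference of 1.43 ± 0.85 (SE) had an adjusted p of 0.31 in limma, and it was 0.36 without tumor 25. Tumor 25 was also the highest array for Tgfb2 and for the mean of 7 endothelial markers. That mean was 4.40, 4.61 and 5.36 in tumors 23, 24 and 25, against 5.20, 5.01 and 4.60 in wild-type replicates 1, 2 and 4, and the part of endothelial cells in the Tgfbr3 values was not tested.

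Of the latency proteins, Ltbp2 rose. Ltbp2 encodes a fibrillin-associated matrix protein and is the family member not known to bind latent TGF-beta itself. It measured 6.72, 6.27 and 6.33 in the tumors, against 5.18, 5.01 and 5.58 in wild-type cells. The groups were apart, and the tumors had an SD of 0.25 and the wild-type cells of 0.29. The adjusted p in limma was 0.045 and the 95% confidence interval 0.64 to 1.73. The call was lost in all 6 sets that left out an array, where adjusted p ran from 0.052 to 0.13 and the difference from 1.04 to 1.34. It was also lost with genes limited to a mean of at least 5 (adjusted p of 0.051 in limma), with a trended robust prior (0.071), and under 3 other scalings. The difference was 0.89 with cyclic loess (adjusted p of 0.077 in limma), 0.83 with a repeated quantile normalization (0.087) and 0.56 with housekeeping centring (0.16).

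Ltbp1, which carries latent TGF-beta to the matrix, measured 5.36, 6.04 and 6.55 in the tumors, against 5.78, 4.54 and 4.78 in wild-type cells. Tumors 24 and 25 lay above every wild-type array, and tumor 23 lay below replicate 1. The difference was 0.95 ± 0.43 (SE, adjusted p of 0.21 in limma). Ltbp3, which also binds the latent complex, measured 7.23, 7.23 and 7.91, against 7.48, 6.50 and 7.20 in wild-type cells. The groups overlapped, with a difference of 0.40 ± 0.32 (SE, adjusted p of 0.44 in limma) that turned to -0.22 with housekeeping centring. The remaining family member Ltbp4 measured 4.10, 6.33 and 4.21 in the tumors, against 5.61, 5.72 and 4.44 in wild-type cells, and did not pass (adjusted p of 0.72 in limma).

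Tgfbi encodes a secreted matrix protein first found as a gene induced by TGF-beta, and it had the largest difference of the 10. It measured 7.74, 9.03 and 6.65 in the tumors, against 5.09, 5.63 and 4.25 in wild-type cells. The tumors lay 2.75, 4.04 and 1.66 above the wild-type mean, and the lowest tumor was still above the highest wild-type array. The difference of 2.81 ± 0.64 (SE), 7.04-fold, had a 95% confidence interval of 1.29 to 4.34 and an adjusted p of 0.065 in limma. Of all genes, 99.6% had a lower difference, and 97.1% had a smaller SD among tumors. It passed in 5 of the 9 settings that kept all arrays, among them genes limited to a mean of at least 5 (adjusted p of 0.014 in limma) and housekeeping centring (2.19, 0.035), and in 0 of 6 sets that left out an array (0.053 to 0.16, with an unadjusted p under 0.05 in the fit over all arrays). The order of the tumors for Tgfbi, with 24 first and 25 last, was that of the mean of 10 fibroblast markers, at 6.38, 5.99 and 5.03 in tumors 24, 23 and 25. The mean of 8 basal markers was 6.76 in tumors 24 and 23 and 6.23 in tumor 25. In a fit with fibroblast markers as a covariate, chosen after seeing the data, Tgfbi differed by 2.17 (adjusted p of 0.036 in limma), and the part of basal cells was not tested. With macrophage markers as a covariate the difference of Tgfbi was -2.67 (SE 2.34). That list separated the groups completely, so the part of macrophage RNA in the Tgfbi values cannot be told apart from the group.

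The tumors were not alike in which member stood out. Tumor 24 was the highest tumor for Tgfb1, Tgfb3, Tgfbr1 and Tgfbi. Tumor 25 was the highest for Tgfb2, Tgfbr2, Tgfbr3, Ltbp1 and Ltbp3, and tumor 23 for Ltbp2 alone. With 3 tumors these orders are a description.

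Cell type markers of the tumor pieces are given beside these results. All 8 macrophage markers lay higher on every tumor array, against 14.0% of all genes, and 6 passed upward, against 2.52%. The macrophage list mean ran from 6.06 to 6.67 in tumors and from 3.72 to 4.25 in wild-type cells. C1qa, a complement gene of macrophages, measured 9.33, 8.91 and 8.13, against 5.19, 4.60 and 4.32. Of 10 fibroblast markers, 1 passed upward, the pericyte and fibroblast receptor Pdgfrb (2.56 ± 0.43, SE, adjusted p of 0.035 in limma), and the list mean overlapped, at 5.03 to 6.38 in tumors and 5.10 to 5.67 in wild-type cells. On that list 8 genes had a higher mean in tumors, while Dcn (-2.76 ± 0.56, SE) and Dpt (-2.30 ± 0.84) were lower without passing. With that list as a covariate Tgfb3 differed by 1.95 (adjusted p of 0.030 in limma) and Ltbp2 by 1.22 (0.060). The skeletal muscle list averaged 9.14 in tumor 23, 3.58 in tumor 24 and 6.16 in tumor 25, and 3.29 to 3.45 in wild-type cells. With the muscle list as a covariate Tgfb3 differed by 2.30 (adjusted p of 0.086 in limma) and Ltbp2 by 0.95 (0.22), so that neither passed. Of the endothelial markers 0 of 7 passed upward and 1 passed downward, with list means of 4.40 to 5.36 in tumors and 4.60 to 5.20 in wild-type cells. None of 5 T cell, 4 platelet and 5 adipocyte markers passed in limma. In limma 26.4% of all genes had an unadjusted p under 0.05, as did 0, 0 and 2 of these markers. The 9 epithelial and 8 skeletal muscle markers did not pass in limma either, with 6 and 3 at an unadjusted p under 0.05, and the epithelial list mean was 6.82 to 8.19 in tumors and 8.62 to 9.34 in wild-type cells. Of 8 basal markers 1 passed, the smooth muscle myosin Myh11, which was lower in tumors, while 6 had a higher mean in tumors. The basal list mean ran from 6.23 to 6.76 in tumors and from 6.15 to 6.53 in wild-type cells. The macrophage list separated the groups completely. The part of macrophage RNA in the rise of Tgfb3 and Ltbp2 and in the higher Tgfbi values therefore cannot be told apart from the group.

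**Figure D3:**
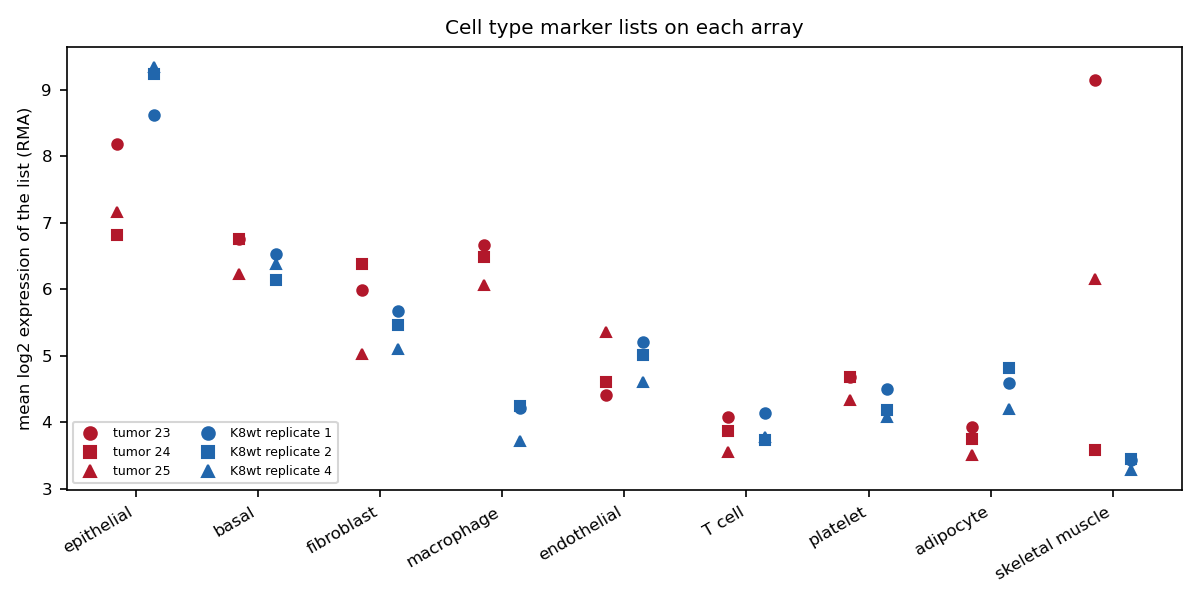
Mean log2 expression (RMA) of each cell type marker list on each array, with tumors in red left of the wild-type arrays in blue. The macrophage list was higher on all 3 tumor arrays, and the skeletal muscle list was high in tumors 23 and 25 (9.14 and 6.16) but not in tumor 24 (3.58).

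Other genes of the pathway moved in both directions. Of 87 genes on lists of transducers, latency and activation genes, responsive genes and BMP or activin relatives, 8 passed, 4 upward and 4 downward, against 3.91% of all genes in either direction. Among 17 signal transducers and feedback regulators 2 fell and none rose, with a list median of 0.13. Smad3, which carries the signal from the receptor to DNA, measured 5.47, 5.07 and 5.79 in tumors, against 7.04, 6.70 and 6.96 in wild-type cells. Its difference was -1.46 ± 0.23 (SE, adjusted p of 0.032 in limma), and every tumor lay below every wild-type array. Tgif1, a repressor of Smad-driven transcription, measured 7.68, 8.22 and 7.73, against 8.97, 8.96 and 8.97, a difference of -1.09 ± 0.20 (SE, adjusted p of 0.042 in limma). The partner Smad2 differed by -0.15 ± 0.17 (SE) and Smad4 by -0.24 ± 0.34, neither passing. The inhibitory Smad7, itself a feedback target of the pathway, measured 5.97, 5.80 and 6.15, against 7.35, 6.57 and 7.05, and did not pass (adjusted p of 0.073 in limma). Of the 17 genes, however, 11 had a higher mean in tumors. Among them were Bambi (1.99 ± 0.65, SE) and Tgfbrap1 (1.49 ± 0.30), neither passing (adjusted p in limma of 0.13 and 0.0501).

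Of 20 measured genes of latency, activation and matrix storage, 3 rose and 1 fell, with a median of 0.13. Itgav, the alpha subunit shared by the integrins that release latent TGF-beta, fell by 2.00 on the log2 scale (SE 0.30, adjusted p of 0.026 in limma), with 6.01, 6.95 and 6.74 in tumors, against 8.70, 8.24 and 8.76 in wild-type cells. Its partner subunit Itgb5 rose by 1.21 ± 0.21 (SE, adjusted p of 0.038 in limma), with 8.16, 8.14 and 7.71, against 6.83, 6.54 and 6.99. The partner subunits Itgb3 (1.87 ± 0.39, SE) and Itgb6 (-2.17 ± 0.44) had opposite differences and missed the threshold (adjusted p in limma of 0.054 for Itgb3 and 0.052 for Itgb6). Itgb8, a further partner, lay higher on every tumor array without passing (1.26 ± 0.43, SE, adjusted p of 0.14 in limma). The proteoglycan Bgn, which can bind TGF-beta, rose by 2.93 ± 0.42 (SE, adjusted p of 0.024 in limma), and the protease Mmp2 by 1.45 ± 0.27 (adjusted p of 0.042). Bgn measured 10.25, 11.20 and 11.84 in tumors, against 8.56, 7.99 and 7.94 in wild-type cells, so that the groups were apart. With the mean of all probe sets of a gene in place of the brightest, Bgn differed by 1.36 (adjusted p of 0.048 in limma) and Itgav by -1.22 (0.026). Dcn, a related proteoglycan, differed by -2.76 ± 0.56 (SE) without passing (adjusted p of 0.052 in limma).

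Among 30 measured TGF-beta responsive genes, 1 rose and 1 fell, and the median was 0.59. Fn1, the matrix protein fibronectin, rose by 3.39 ± 0.56 (SE, adjusted p of 0.033 in limma), with 10.04, 10.17 and 11.70 in tumors, against 7.17, 8.03 and 6.53 in wild-type cells. Angptl4, a secreted inhibitor of lipoprotein lipase, fell by 2.91 on the log2 scale (SE 0.30, adjusted p of 0.014 in limma), with 5.62, 5.06 and 4.50, against 7.77, 8.06 and 8.06. The other 28 did not pass, and 23 of the 30 had a higher mean in tumors. Neither this count nor that of the 17 signal transducers was set against a share of all genes. The 7726 bright genes described above leaned upward too, with a median difference of 0.32, while that of all genes was -0.12. Twist1, a transcription factor of mesenchymal change, measured 7.26, 5.90 and 8.66, against 4.12, 4.13 and 4.43, with an adjusted p of 0.056 in limma. Of 24 measured BMP and activin relatives none passed in limma, and their median was -0.10. An unadjusted p under 0.05 in limma was found for 6 of them, against 26.4% of all genes. Fst, the activin antagonist follistatin, had a difference of -1.50 ± 0.55 (SE), and the BMP receptor gene Bmpr1b of -1.31 ± 0.35, with 2 of 3 tumors under the background mark.

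None of these 8 genes passed in all 6 sets that left out an array. Angptl4 passed in 4, Bgn in 3, Smad3 and Mmp2 in 2, Itgav, Fn1 and Tgif1 in 1 and Itgb5 in 0, with adjusted p between 0.022 and 0.12 in limma. Without wild-type replicate 4, for example, Smad3 differed by -1.43 (adjusted p of 0.11 in limma) and Fn1 by 3.04 (0.11). Under the 3 other scalings Smad3, Itgav, Bgn, Fn1 and Angptl4 passed in each, Tgif1 in 1, and Mmp2 and Itgb5 in none. All 8 kept their direction there. Tgif1 was also lost among genes with a mean of at least 5 (adjusted p of 0.060 in limma). The same held among genes at or above the median level (0.053 in limma). With a trended robust prior Tgif1 (adjusted p of 0.077 in limma) and Itgb5 (0.067) were lost. With housekeeping centring Tgif1 differed by -1.71, Mmp2 by 0.83 and Itgb5 by 0.59, and among the receptors and Ltbp1 the differences were 0.05 for Tgfbr1, -0.87 for Tgfbr2, 0.81 for Tgfbr3 and 0.33 for Ltbp1, none of these 4 passing (adjusted p of 0.069 to 0.95 in limma).

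**Figure D4:**
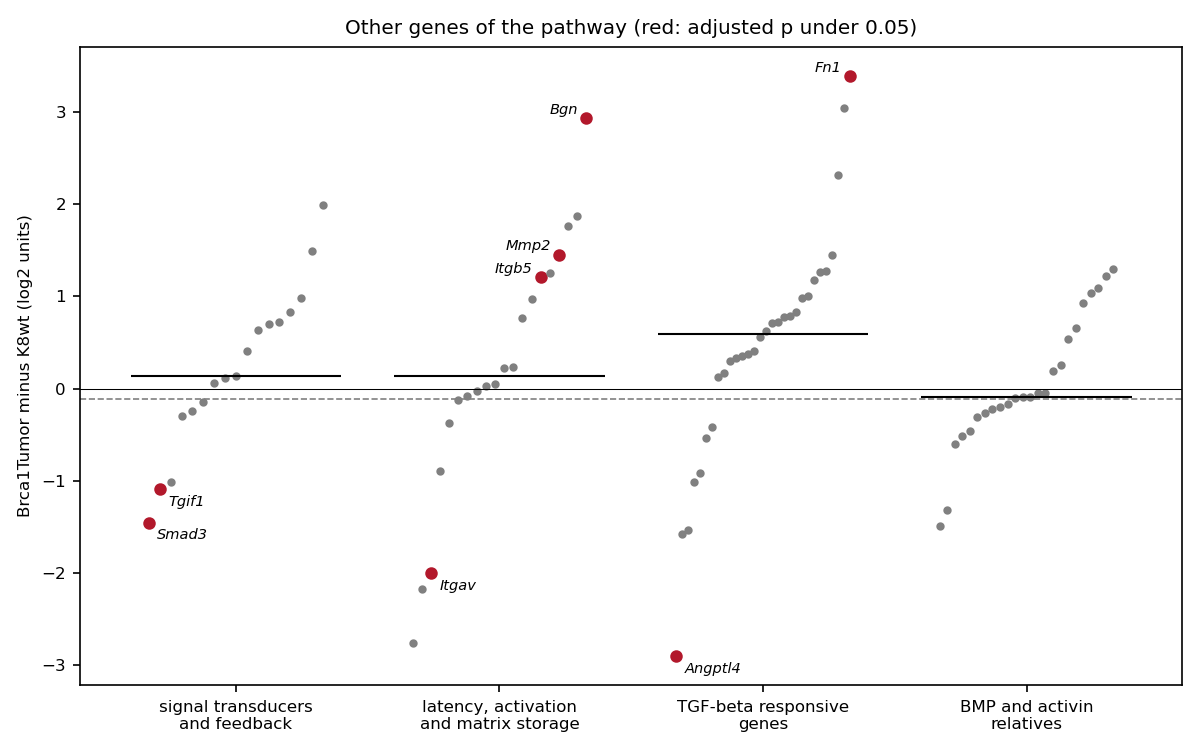
Difference between tumors and wild-type cells in log2 units for the genes of 4 pathway lists, each point a gene, ordered by size within its list. Red named points passed, black bars give the list medians and the dashed line the median of all genes (-0.12). Passing genes lay on both sides of 0, from -2.91 for Angptl4 to 3.39 for Fn1.

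Genes whose values over the 6 arrays were most like those of the 2 members that passed were sought among 11767 genes with a range of at least 1 log2 unit. For Tgfb3 these were Zgpat (Pearson's r of 0.995), Arhgef40 (0.991) and Gnpat (0.989). For Ltbp2 they were Fem1a (0.997), Patz1 (0.996) and Tmem199 (0.995). With 6 arrays in 2 groups, any gene that differs cleanly between the groups gives a high r, and all 6 of these genes passed upward themselves.

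**Figure D5:**
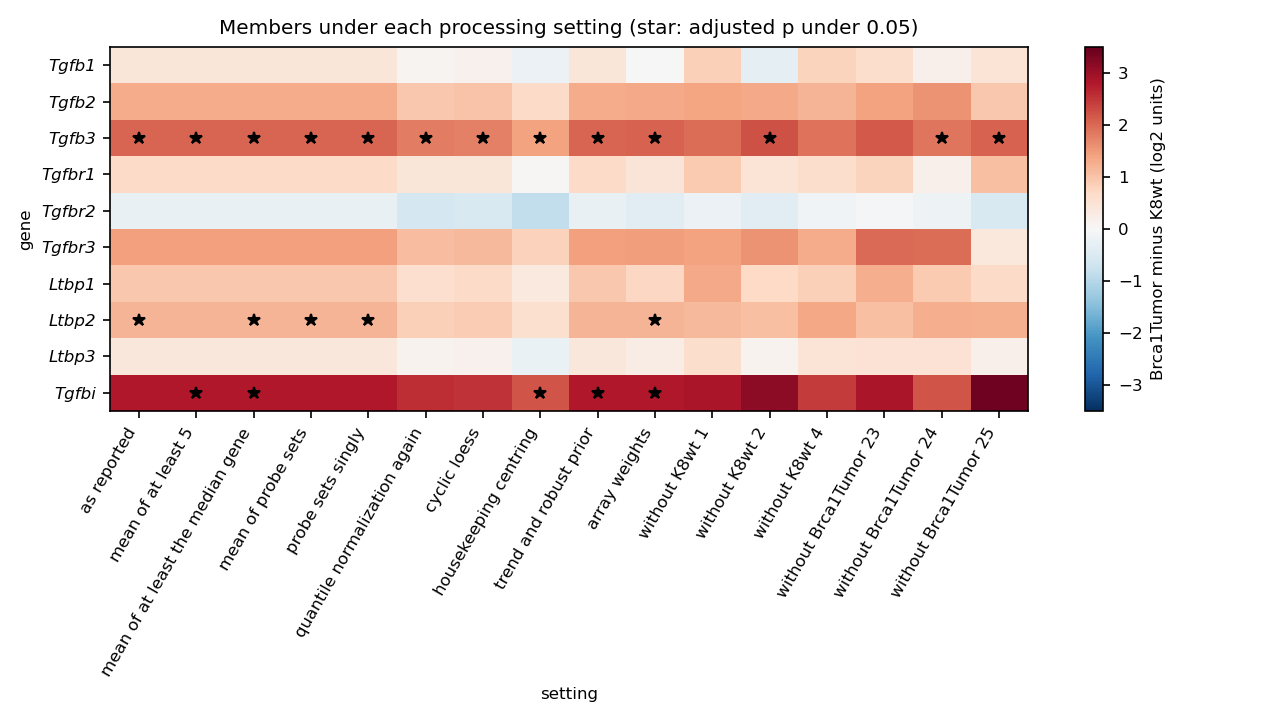
Difference between tumors and wild-type cells (colour, log2 units) for each of the 10 genes under the reported fit and 15 alternatives, with a star where adjusted p was under 0.05. Tgfb3 carries a star under 12 of the 15 alternatives, Tgfbi under 5 and Ltbp2 under 4, and the other 7 genes under none.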

How the data were processed

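RNA of the 6 samples was amplified (NuGEN) and biotin-labelled before hybridisation, per the labels' protocols. The authors deposited 1 log2 value for each probe set on each array, made with RMA in oligo, per the submitters' processing notes, with no version stated. RMA compresses differences of dim genes and draws the arrays towards a common distribution, although medians of 3.25 to 3.59 remained. Arrays give no read depth, and their number limits the precision. Neither scan dates nor detection calls were used, so no batch was tested.

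The platform annotation named 1 gene for 23521 of 41345 probe sets, several for 1814 and none for 16010. Symbols were updated by Entrez identifier (23328 matched RefSeq, GRCm38.p6), and the probe set with the highest mean stood for each gene. Groups were compared with limma 3.58.1 (R 4.3.3), two-sided, without covariates or filter, and adjusted by Benjamini-Hochberg over 22180 genes. In simulated data of the same 22180 genes with 200 changed, 18% of changes of 1 log2 unit, 62% of 2, 88% of 3 and 92% of 4 were recovered, and 5.8% of 138 calls were false. More genes passed in the data (867) than were changed in the simulation, so these rates need not hold for the data. The labels give no shared replicate numbers.

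The 10 genes and all lists were chosen with earlier results of these data known. Named beside the 10 are list genes that passed (or the 2 largest differences), the 3 genes most like each passing member, and some of the defining cell markers. Smad2, Smad4, Smad7, Bambi, Tgfbrap1, Itgb3, Itgb6, Itgb8, Dcn, Dpt, Ltbp4, Twist1 and Myh11 were added after their values were seen, and so was the background mark. List genes without a probe set of their own were not analysed here.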

Additional observations from a re-analysis of the deposited data

How the results depend on the processing

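Alternatives were 2 filters on dim genes, 2 ways of treating several probe sets, 3 scalings, a trended robust prior, array weights and leaving out each array. The 10 genes have 1 probe set each, so the 2 ways of treating several probe sets left their values unchanged. Of 150 combinations of the 10 genes with these 15 settings, 127 kept direction and side of the threshold, 14 lost a call, 5 gained one and 4 reversed. The reversals were Tgfb1 after housekeeping centring (-0.19), with array weights (-0.017) and without wild-type replicate 2 (over the leave-one-out sets -0.35 to 0.84), and Ltbp3 after housekeeping centring (-0.22). The number of the 10 genes that passed was 2 as reported, 1 with cyclic loess, 1 with a repeated quantile normalization and 0 to 1 without single arrays (0 without wild-type replicates 1 and 4 and without tumor 23, with 4 to 5 at an unadjusted p under 0.05 in limma). Over all genes 867 passed, 7523 after housekeeping centring, which moved the median difference to -0.74, 1324 with array weights, and 72 to 1200 without single arrays. Of these calls 64.5% were higher in tumors as reported, 52.3% with cyclic loess, 44.3% with a repeated quantile normalization and 7.28% with housekeeping centring. The housekeeping list itself averaged 8.09 to 8.68 in tumors and 7.67 to 7.97 in wild-type cells. Of the 87 pathway genes 8 passed, 14 among genes with a mean of at least 5, 13 among genes at or above the median level, 22 after housekeeping centring, 13 with array weights and 0 to 13 without single arrays (31 at an unadjusted p under 0.05 in limma without replicate 2 and 26 without replicate 4). Leaving out an array also leaves fewer samples.

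Covariates chosen after seeing the data were the means of marker lists. With skeletal muscle 20 genes passed, 0 of the 10 (3 at an unadjusted p under 0.05 in limma) and 0 of the 87 (28), and Tgfb3 differed by 2.30 (adjusted p of 0.086 in limma). With fibroblast markers 1143 genes passed, 892 of them higher in tumors. Of the 10 genes 3 passed there, Tgfb2, Tgfb3 and Tgfbi (1.57, 1.95 and 2.17), and Ltbp2 did not (adjusted p of 0.060 in limma). With macrophage markers 0 genes passed (1532 at an unadjusted p under 0.05 in limma), 0 of the 10 (1) and 0 of the 87 (9). The standard error of Tgfb3 was 1.27 there, and Tgfbr1 (-1.30), Tgfbr2 (2.55), Tgfbi (-2.67) and Bmpr1b (0.57) reversed. No paired analysis was possible because the groups share no replicate numbers.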

Other observations

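A further probe set is annotated to Ltbp2 together with D030025P21Rik and entered no comparison. It measured 3.85, 2.63 and 3.21 in tumors 23, 24 and 25, against 2.89, 2.83 and 2.78 in wild-type replicates 1, 2 and 4. Only the value in tumor 23 lay above the background mark of its array, so this probe set gives no second measure of Ltbp2.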
